A study of Mus musculus with 12 samples.

Results

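Liver progenitor and cholangiocyte markers are genes whose products mark the cells of the bile ducts and the small ductular cells that appear in injured liver. The list was given by name, with no threshold on values, as the 9 genes Sox9, Spp1, Tspan8, Cd24a, Cd44, Krt7, Krt19, Krt23 and Tff3. Of these, 8 had a probe carrying their symbol, with 17 probes among the 45281 of the array, and 7 were bright enough to be tested among 10711 genes. Spp1, the gene for the secreted matrix protein osteopontin, had no probe with its symbol in the annotation used and is given no value here. Expression was measured in whole livers of mice 2 months old, on 12 MouseWG-6 v2.0 arrays with 1 liver each. The 4 Atg7 KO livers carried Alb-CRE, driven by the albumin promoter of hepatocytes, on floxed Atg7 alleles (Atg7 FF). Another 4 livers carried Olig1-CRE on the same Atg7 FF alleles, where Olig1, known from oligodendrocytes, drives the Cre, and the 4 control livers were Atg7 FF without Cre. Both Cre groups bear the genotype label Atg7 cKO, and Atg7 encodes an enzyme that autophagosomes need to form.

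In the adult liver, cholangiocytes line the bile ducts and hepatocytes fill the lobule. When hepatocytes are injured, cells with features of both can spread from the portal tracts in what is called a ductular reaction, and hepatocytes themselves can take on biliary genes. Sox9 is the transcription factor most used to follow these cells. Krt7, Krt19 and Krt23 are intermediate filament genes of simple epithelia, Tspan8, Cd24a and Cd44 encode cell surface proteins, and Spp1 and Tff3 encode secreted ones.

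Every Atg7 KO liver came from a male, but among Olig1-Cre livers only replicate 2 and among controls only replicate 1 did. On each of 2 chips lay 2 arrays per group, and both of those males were on chip 1. Controls 1 and 3 came from the Alb line and controls 2 and 4 from the Olig1 line. Between 39.8% and 43.9% of probes were detected per Atg7 KO array, 39.1% to 41.9% per Olig1-Cre array and 34.2% to 37.8% per control array. The Atg7 probe was detected on only 2 of 12 arrays and could not check the genotypes. The Olig1 probe was detected on 12 of 12. The mean log2 signal over 15 hepatocyte markers was 10.8 to 11.1 in Atg7 KO, 10.8 to 11.5 in Olig1-Cre and 11.6 to 11.9 in control livers, but it hides dim ones. Alb averaged 4.69 in Atg7 KO, 4.92 in Olig1-Cre and 5.48 in control livers and was detected on 3 of 4 arrays of each Cre group. In controls Ttr and Apoa1 averaged 13.8 and 13.9. The Alb value lay far below these even there and may not report the level of albumin RNA. Slc10a1, the gene for a bile acid transporter, averaged 4.65 in Atg7 KO, 5.28 in Olig1-Cre and 6.53 in control livers and was detected on 3 of 4 Atg7 KO arrays. In RNA of whole liver, fewer cells of a type and less RNA per cell cannot be told apart.

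The promoters of the members could be read for 5 of the 9 genes (6 start sites, RefSeq, GRCm38.p6). They are shown for Tspan8, which had the largest measured difference between Atg7 KO and control livers among the members with a promoter in that set, and for Krt23 and Cd44, whose promoters held a match to the SOX and the RBPJ core. Each line gives the 250 bases before the start site, 5′ to 3′ on the strand of the gene, with motif matches in capitals.
Tspan8 (chr10:115817034-115817283, plus strand): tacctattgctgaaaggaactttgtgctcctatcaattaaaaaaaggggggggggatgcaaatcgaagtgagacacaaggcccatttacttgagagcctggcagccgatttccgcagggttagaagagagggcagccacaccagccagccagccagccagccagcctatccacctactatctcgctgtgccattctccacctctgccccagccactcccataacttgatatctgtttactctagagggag
Krt23 (chr11:99493121-99493370, minus strand): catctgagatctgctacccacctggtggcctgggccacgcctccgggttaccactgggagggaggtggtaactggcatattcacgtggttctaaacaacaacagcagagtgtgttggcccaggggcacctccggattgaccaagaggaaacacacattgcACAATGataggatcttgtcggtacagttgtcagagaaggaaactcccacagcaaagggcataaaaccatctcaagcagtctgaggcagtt
Cd44 (chr2:102901666-102901915, minus strand): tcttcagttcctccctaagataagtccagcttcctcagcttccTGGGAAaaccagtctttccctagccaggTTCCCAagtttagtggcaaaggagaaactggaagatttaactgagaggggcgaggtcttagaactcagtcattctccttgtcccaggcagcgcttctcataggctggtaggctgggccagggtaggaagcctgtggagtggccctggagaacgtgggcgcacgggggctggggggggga
The motifs were searched on both strands in these bases and the 50 that follow. ACAATG, a core that SOX factors bind, was found in 1 of the 6 member promoters, Krt23, 90 bases before the start site, and in 12.6% of all 32851 promoters of the same length. TGGGAA, the core of the Notch effector RBPJ, was found in 1 of the 6, in capitals in Cd44 at 207 bases before the start site and, on the other strand, at 179, and in 25.6% of all promoters. The TEAD motif GGAATG (14.7% of all promoters), the AP-1 motif TGANTCA (7.81%) and the antioxidant response element TGACNNNGC (12.4%) were in none of the 6. The TATA box TATAAA (13.6%) was in 1, an upstream start of Spp1. No letters of these motifs overlapped in the sequences shown. These matches are descriptions of the letters only.

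The first comparison set the Atg7 KO livers, all from males, against the controls, of which 1 was male. Against control livers, 6 of the 7 tested markers were higher in Atg7 KO livers by limma (adjusted p under 0.05), and 0 were lower. Among all 10711 genes, 19.5% were called higher and 15.3% lower. In those 6 genes the 4 Atg7 KO livers all lay above the 4 controls, as in 19.4% of all genes. The median log2 fold change of the 7 was 1.57, against -0.0069 over all genes. The members were chosen with earlier results of these data known, so these shares are a description and not an independent test. The exception was Krt7. A gene was tested when a probe was detected on at least 4 arrays, which Krt7 and Krt19 reached only with their Atg7 KO arrays. The plot by liver shows every value.

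**Figure D1:**
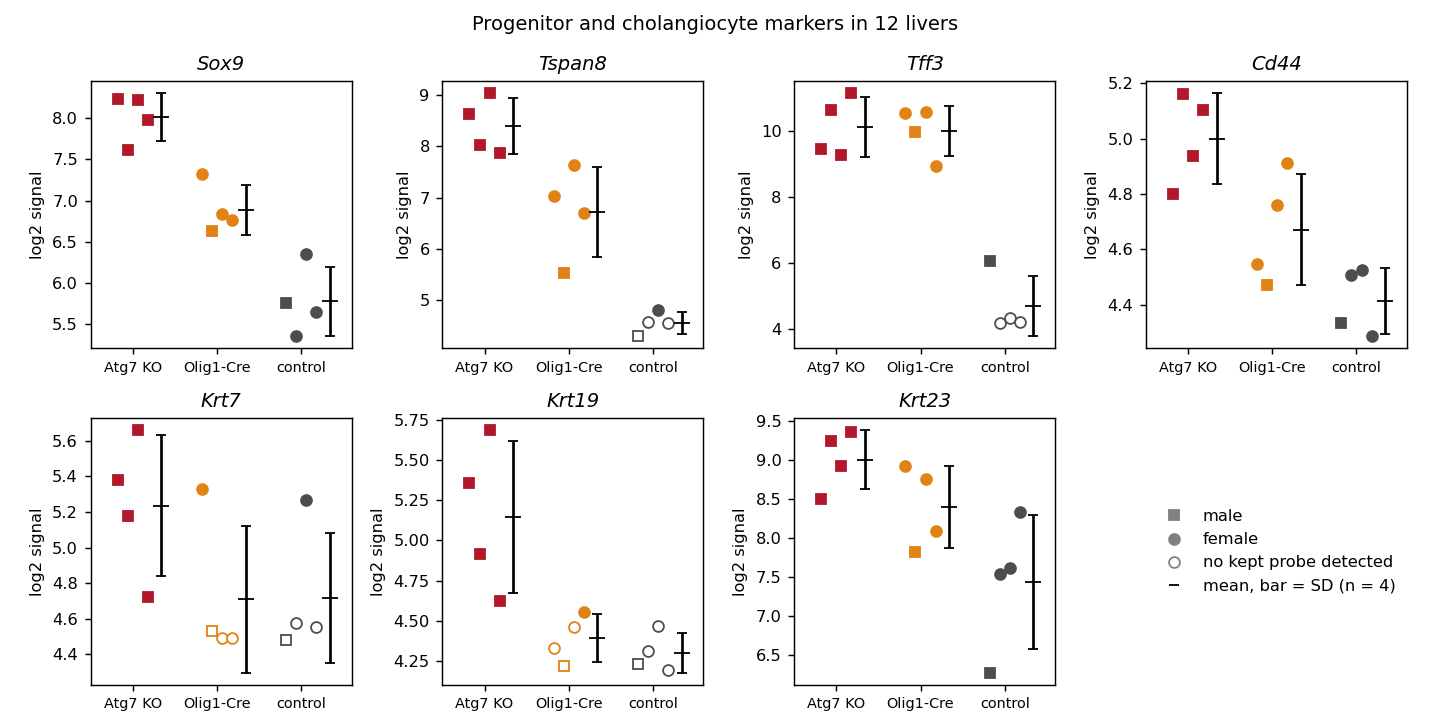
Log2 signal (vertical axis) of the 7 tested markers in each liver, by group, with the mean and SD of 4 livers beside the points; squares are males, circles females, and open symbols arrays on which no kept probe of the gene was detected. Sox9, Tspan8 and Krt19 are highest in all 4 Atg7 KO livers, whereas Tff3 overlaps between the Cre groups at 8.95 to 11.2.

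Sox9 had log2 signals of 8.24, 7.62, 8.22 and 7.97 in Atg7 KO livers 1 to 4, of 7.32, 6.62, 6.84 and 6.77 in Olig1-Cre livers, and of 5.76, 5.36, 6.35 and 5.65 in controls. The 3 groups formed separate steps with no overlap between any of them. The group means were 8.01 ± 0.29 in Atg7 KO, 6.89 ± 0.30 in Olig1-Cre and 5.78 ± 0.42 in control livers (SD, n = 4 each). Sox9 directs the formation of bile ducts in the embryo and stays on in adult cholangiocytes. Atg7 KO exceeded control livers 4.71-fold, with a 95% interval of 1.75 to 2.72 on the log2 scale (adjusted p = 4.51e-05 from limma). The exact permutation test gave p = 0.0286, the smallest that 4 livers against 4 allow. Both Sox9 probes were called, but they differed in size. The bright one, ILMN_2778151, had a log2 fold change of 2.79 (SE 0.25) and raw signals of 920.3 to 1569.1 in Atg7 KO livers, against 117.2 to 242.0 in controls. The dim one, ILMN_3007428, was at 1.67 (SE 0.22) and was detected on 1 of 4 control arrays.

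Tspan8 encodes a tetraspanin of epithelial cell membranes. Its log2 signals were 8.63, 8.02, 9.04 and 7.86 in Atg7 KO livers, 7.03, 5.54, 7.63 and 6.70 in Olig1-Cre livers, and 4.30, 4.56, 4.81 and 4.55 in controls. The Atg7 KO livers stood highest and the controls lowest, with no overlap between groups. The spread was widest in the Olig1-Cre group (SD 0.88, against 0.54 in Atg7 KO and 0.21 in controls), where the male liver was the lowest. Atg7 KO exceeded control livers by 3.83 on the log2 scale (SE 0.24, adjusted p = 3.27e-06 from limma). Only 1 of 4 control arrays detected it, so the size of that difference is set against the background of the arrays.

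Tff3, a trefoil peptide gene of mucus-secreting epithelia, is also made by bile duct cells. Its raw signals were 934.8, 1643.1, 929.7 and 2987.1 in Atg7 KO livers and 1752.4, 928.7, 1979.7 and 571.2 in Olig1-Cre livers, against 91.5, 83.6, 89.1 and 85.2 in controls. On the log2 scale the values were 9.46, 10.64, 9.28 and 11.16 in Atg7 KO, 10.56, 9.99, 10.58 and 8.95 in Olig1-Cre and 6.07, 4.196, 4.35 and 4.202 in control livers. The Cre groups overlapped in part, with Atg7 KO replicates 2 and 4 above every Olig1-Cre liver and Olig1-Cre replicate 4 below every Atg7 KO liver. Both lay above the controls, of which only the male, replicate 1, was detected. The log2 fold change against control was 5.43 in Atg7 KO (SE 0.50, adjusted p = 3.15e-05 from limma), a size set against the background of the 3 arrays that did not detect it. With sex as a covariate, which sets Atg7 KO livers against the male control, it was 4.07 (adjusted p = 0.00218 from limma). Tff2, a trefoil gene of the stomach from the intestine and stomach list, averaged 6.23 in Atg7 KO and 4.95 in control livers, a difference of 1.28 (SE 0.22, adjusted p = 0.00129 from limma). Of that list 4 of 12 genes could be tested, with Tff2 and the guanylin gene Guca2a higher and the galectin gene Lgals4, which was detected in every liver, lower. With the arrays scaled to 1 median, 2 were higher and 0 lower. Vil1, the gene for villin of brush borders, was detected on 3 of 4 Atg7 KO arrays and on 0 of 4 in each other group, and the intestinal markers Fabp2, Cdx2, Muc2 and Sis on 0 of 12 arrays.

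Cd44 encodes the hyaluronan receptor of progenitor cells, and also of leukocytes and activated mesenchymal cells. The median of its 5 kept probes gave log2 signals of 4.80, 5.16, 4.94 and 5.10 in Atg7 KO livers, 4.55, 4.47, 4.76 and 4.91 in Olig1-Cre livers, and 4.33, 4.51, 4.53 and 4.29 in controls. Atg7 KO livers did not overlap the controls, while the Olig1-Cre livers bridged both groups. The log2 fold change of Atg7 KO against control was 0.59 (SE 0.13, adjusted p = 0.00559 from limma). With 3 of the 5 probes dim, and each of those detected on 0 of 4 control arrays, the median is the value of a dim probe. Each dim probe reached the 4 arrays of the filter only with Atg7 KO arrays, so the gene's call is not independent of that filter. The pair of probes detected on all 12 arrays gave larger values. ILMN_1223697 had raw signals of 397.8 to 627.5 in Atg7 KO, 201.9 to 374.4 in Olig1-Cre and 95.9 to 161.2 in control livers, and a difference of 1.56 between Atg7 KO and control on the log2 scale (SE 0.18, adjusted p = 0.000129 from limma on single probes). ILMN_3114585 was at 1.25 (SE 0.21, adjusted p = 0.00132 from the same fit). The gene's call was lost without the filter on dim probes (adjusted p = 0.0559 from limma), which lets all 9 probes into the median.

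**Figure D2:**
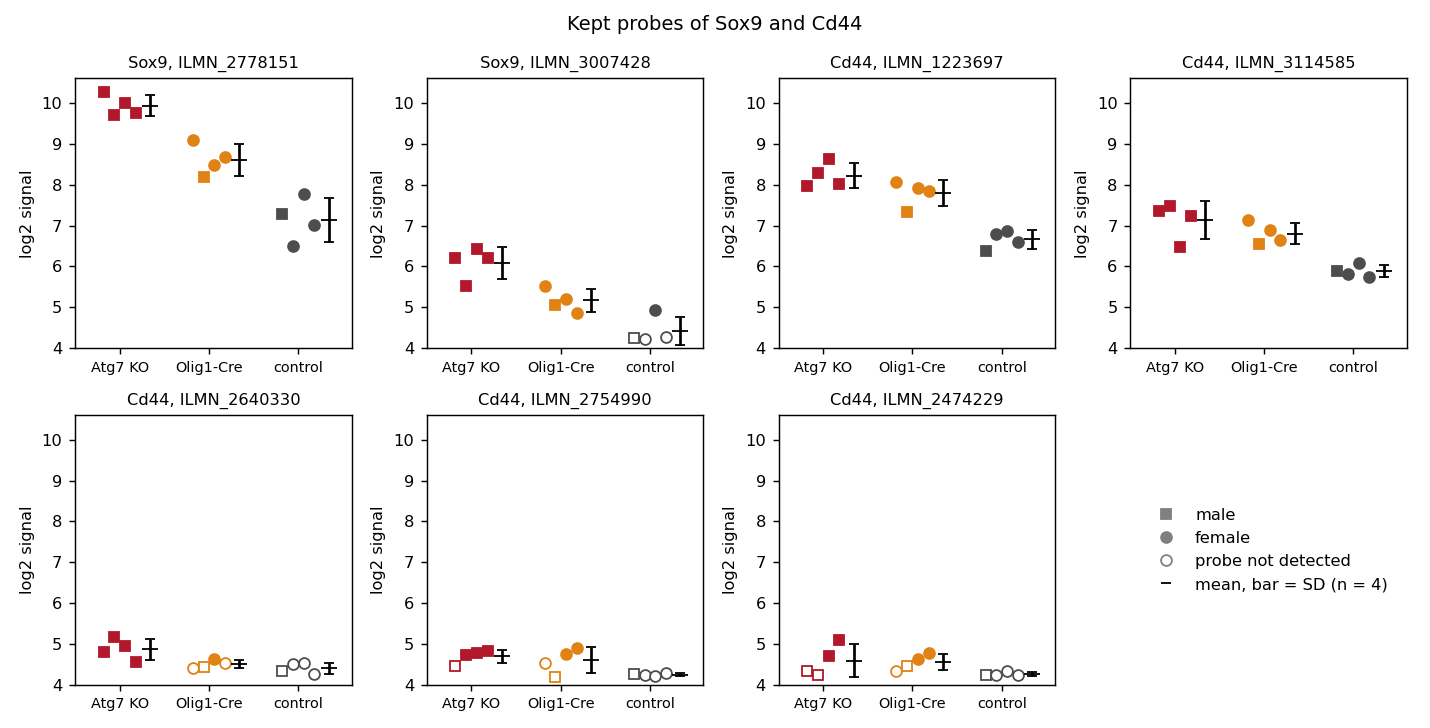
Log2 signal (vertical axis, one scale) of the 2 kept Sox9 probes and the 5 kept Cd44 probes in each liver, by group, with mean and SD; open symbols are arrays on which the probe was not detected. The bright Cd44 probes separate both Cre groups from the controls, while 3 dim ones stay between 4.19 and 5.16.

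Of the 3 keratins among the members, only Krt23 was detected on all 12 arrays. Its log2 signals were 8.50, 9.24, 8.92 and 9.36 in Atg7 KO livers, 8.92, 7.82, 8.75 and 8.08 in Olig1-Cre livers, and 6.27, 7.53, 7.62 and 8.34 in controls. The Atg7 KO livers lay just above the highest control, and the male control was lowest of all 12. The log2 fold change of Atg7 KO against control was 1.57 (SE 0.37, adjusted p = 0.00855 from limma), and 2.74 with sex as a covariate (adjusted p = 0.00143), a fit that sets Atg7 KO livers against the male control.

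Krt19, the keratin most used to stain bile ducts, had log2 signals of 5.36, 4.91, 5.69 and 4.62 in Atg7 KO livers, 4.33, 4.22, 4.46 and 4.56 in Olig1-Cre livers, and 4.23, 4.31, 4.47 and 4.19 in controls. It was detected in 4 of 4 Atg7 KO, 1 of 4 Olig1-Cre and 0 of 4 control livers. The detection filter was thus passed only through Atg7 KO arrays, and the call is not independent of that filter. Atg7 KO livers exceeded controls at least 1.29-fold (adjusted p = 0.0112 from limma), the bound being set against the lowest signal among detected probes of each control array. With sex as a covariate the adjusted p was 0.0906, and with controls of the Alb line alone 0.0794.

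Krt7, another keratin of bile ducts, had log2 signals of 5.38, 5.18, 5.66 and 4.72 in Atg7 KO livers, 5.33, 4.53, 4.49 and 4.49 in Olig1-Cre livers, and 4.48, 4.57, 5.26 and 4.55 in controls. It was detected in 4 of 4 Atg7 KO livers but in 1 of 4 of each other group, and those single livers overlapped the Atg7 KO values. The difference of 0.52 between Atg7 KO and control did not pass (SE 0.23, adjusted p = 0.106 from limma, 95% interval 0.0067 to 1.03), and the exact permutation p was 0.0857. It passed without Atg7 KO replicate 4 (adjusted p = 0.0377) or without control replicate 3 (adjusted p = 0.0355). It also passed with the arrays scaled to 1 median (0.82, adjusted p = 0.0304), where the median of all genes stood at 0.59 and Krt7 lay 0.23 above it.

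Cd24a, the gene for a small membrane glycoprotein of progenitor cells, had a single probe that was detected on 0 of 12 arrays. Its raw signals were 84.5 to 95.8 in Atg7 KO, 83.2 to 90.3 in Olig1-Cre and 76.5 to 87.1 in control livers. It was not tested, and no difference was measurable near the background of these arrays.

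The second comparison set the Cre lines against each other. Between Atg7 KO and Olig1-Cre livers, 0 of the 7 markers were called by limma, against 0.0747% of all genes called higher and 0.0840% called lower. At an unadjusted p under 0.05, 5 of the 7 were higher in Atg7 KO livers and 0 lower (7.59% and 6.77% of all genes). In 3 of the 7, Sox9, Tspan8 and Krt19, the Atg7 KO livers all lay above the Olig1-Cre livers with an exact permutation p of 0.0286, as did 4.37% of all genes. Sox9 missed the threshold narrowly, at 1.12 on the log2 scale (SE 0.19) and an adjusted p = 0.0505 from limma. It passed in 5 of 15 other settings, with adjusted p between 0.0427 and 0.404 over them. Tspan8 was at 1.67 (SE 0.41, adjusted p = 0.139 from limma). With sex as a covariate Tspan8 was at 2.85, a value that rests on the 1 male Olig1-Cre liver. Krt19 was at 0.75 (SE 0.21, adjusted p = 0.171). Tff3 was nearest to 0, at 0.12 with a 95% interval of -0.94 to 1.17 (adjusted p = 0.941), which leaves room for a change in either direction. Cd44, Krt7 and Krt23 lay between 0.33 and 0.61, with adjusted p of 0.321 to 0.360.

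**Figure D3:**
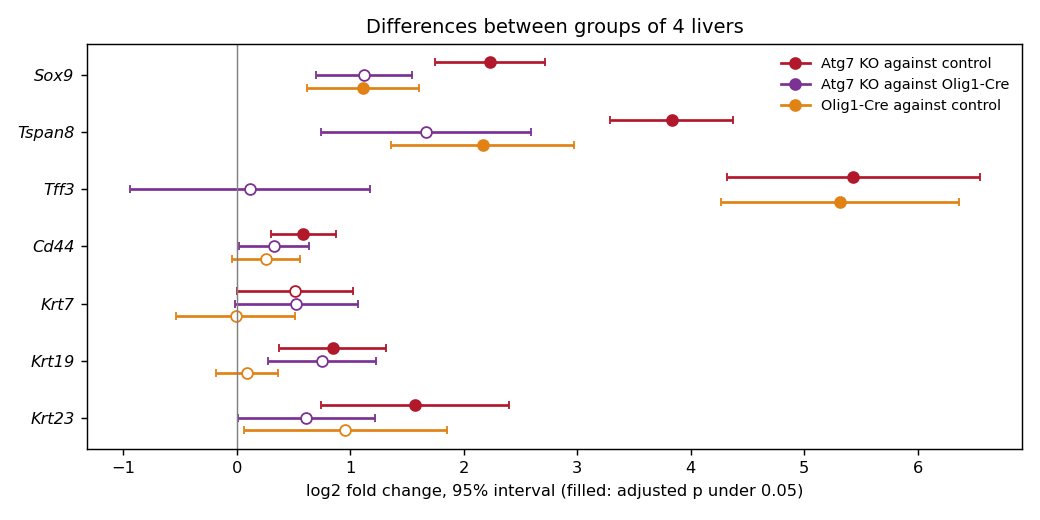
Log2 fold change (horizontal axis) of the 7 tested markers in each comparison of 4 livers with 4, with 95% intervals from limma; filled points have an adjusted p under 0.05. Tff3 is near 5.4 in Atg7 KO and 5.3 in Olig1-Cre livers against control, and no point of Atg7 KO against Olig1-Cre is filled.

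The third comparison used the same 4 controls, so its values are not independent of the first. Of the 7 markers, 3 were higher in Olig1-Cre than in control livers and 0 lower, against 12.8% and 8.47% of all genes (limma). The same 3 were the members whose groups did not overlap, as in 14.1% of all genes. Tff3 was at 5.32 (SE 0.47, adjusted p = 0.000182 from limma), Tspan8 at 2.17 (SE 0.36, adjusted p = 0.00406) and Sox9 at 1.11 (SE 0.22, adjusted p = 0.00853). Sox9 and Tspan8 in Olig1-Cre livers lay between the Atg7 KO and control levels, while the Tff3 levels of the Cre lines could not be told apart beyond their spread. Krt19 at 0.091 and Krt7 at -0.0088 were not called (adjusted p = 0.630 and 0.982), with 95% intervals of -0.18 to 0.36 and -0.53 to 0.51. Krt23 was at 0.96 (adjusted p = 0.114) and passed without control replicate 4 (1.26, adjusted p = 0.0489) and with sex as a covariate (adjusted p = 0.0229). Cd44 as a gene was at 0.26 (SE 0.13, adjusted p = 0.189), but its pair of bright probes was called at 1.13 (adjusted p = 0.00341 from limma on single probes) and 0.92 (adjusted p = 0.00418). With detection asked at p under 0.01, the gene was called as well (0.92, adjusted p = 0.00389).

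The male Olig1-Cre liver was the lowest of its group for 5 of the 7 markers, and the male control was the lowest of its group for 3 and the highest for 1, Tff3. Between these 2 males, 1 liver each, Olig1-Cre exceeded control by 3.92 for Tff3, 1.24 for Tspan8 and 0.86 for Sox9 on the log2 scale, values given without a test. Within chip 1 the log2 fold changes of Atg7 KO against control were 2.37 for Sox9, 3.90 for Tspan8 and 4.92 for Tff3, and within chip 2 they were 2.10, 3.77 and 5.95, all called. Within chip 1 those of Olig1-Cre against control were 1.41, 1.85 and 5.15, of which 0 passed (adjusted p = 0.223, 0.257 and 0.0881). Within chip 2, where both groups were female, they were 0.81, 2.49 and 5.49, and Sox9 did not pass (adjusted p = 0.0918). Cd44 did not pass within either chip between Atg7 KO and control (0.56 and 0.61, adjusted p = 0.122 and 0.0839), nor Krt19 within chip 2 (0.82, adjusted p = 0.166).

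Other biliary genes were mostly higher as well. Of 32 genes on a list of biliary epithelium, 19 could be tested, and in Atg7 KO against control livers 14 were higher and 0 lower (limma, background 19.5% and 15.3% as above), with a median log2 fold change of 1.06. Cldn4, a tight junction gene, averaged 7.80 in Atg7 KO livers and was detected on 0 of 4 control arrays, at least 8.17-fold higher (adjusted p = 3.83e-05 from limma). Bicc1, an RNA-binding protein gene whose loss gives cystic bile ducts, had a 3.28 higher log2 signal in Atg7 KO livers (SE 0.19, adjusted p = 1.92e-06). Krt8, the type II keratin of hepatocytes and cholangiocytes alike, was at 1.90 and Anxa13 at 1.65. Cftr and Grhl2, also called higher, were each detected on 3 of 4 Atg7 KO, 1 of 4 Olig1-Cre and 0 of 4 control arrays. Cldn4 and St14, likewise called higher, were each detected on 4 of 4 Atg7 KO, 3 of 4 Olig1-Cre and 0 of 4 control arrays. All of these genes were thus tested only through their Atg7 KO arrays, and their calls are not independent of the detection filter. Several defining genes were too dim to be tested. Epcam was detected on 0 of 12 arrays and the 3 probes of Prom1 on at most 1 each. The Pkhd1 probe ILMN_1223914 was detected on 3 of 4 Atg7 KO arrays and on 0 of 4 in each other group. Its probe ILMN_1231774 was detected on 2 Atg7 KO, 1 Olig1-Cre and 0 control arrays, and ILMN_2671001 on 0 of 12. In Olig1-Cre against control livers 7 of the 19 were higher and 0 lower (median 0.38, background 12.8% and 8.47%), among them Bicc1 at 2.04 (adjusted p = 0.00664). Between Atg7 KO and Olig1-Cre livers limma called 0 of the 19, and 9 were higher at an unadjusted p under 0.05 (7.59% of all genes).

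Of 20 tested genes of progenitor cells and the ductular reaction, 14 were higher and 2 lower in Atg7 KO livers against controls (median 1.24). The remaining 4 were not called, and among all genes 19.5% were higher and 15.3% lower. Itgb6, among the 14 higher, was detected on 4 of 4 Atg7 KO, 3 of 4 Olig1-Cre and 0 of 4 control arrays. It was thus tested only through its Atg7 KO arrays. Foxl1, also on that list, was detected on 0 of 12 arrays and the probes of Dlk1 on at most 1 each. Lcn2, the gene for lipocalin 2 of injured epithelia, was at 4.40 (SE 0.41, adjusted p = 3.15e-05 from limma) and Cd9, another tetraspanin gene, at 3.58 (SE 0.22, adjusted p = 2.59e-06). Gpc3, a glypican gene of fetal liver, was at 3.06 and Tnfrsf12a, the gene for the TWEAK receptor Fn14 that drives progenitor growth, at 2.99. The lower ones were Lgr5, a Wnt target of stem cells and of hepatocytes around the central vein, at -1.42 (SE 0.20, adjusted p = 0.000398), and Kit at -0.51. In Olig1-Cre against control livers 10 of the 20 were higher and 1 lower (median 0.77), against 12.8% and 8.47% of all genes. Lcn2 was at 3.59 there (adjusted p = 0.00145 from limma). Between the Cre lines 0 were called, with 7 higher and 1 lower at an unadjusted p under 0.05 (7.59% and 6.77% of all genes). Of 12 tested genes of Notch signalling, which drives cholangiocyte fate in development, 2 were higher and 1 lower in Atg7 KO against control livers (median 0.18), no larger a share than the 19.5% and 15.3% of all genes. Hey1, a Notch target, was at 1.10 (SE 0.24, adjusted p = 0.00560 from limma). The coactivator gene Maml1 was at -0.81 (SE 0.17, adjusted p = 0.00460). Notch3 was at least 1.16-fold higher (adjusted p = 0.0264), but was detected on 2 of 4 Olig1-Cre and 0 of 4 control arrays. Notch3 was thus tested only through its Atg7 KO arrays. In Olig1-Cre against control livers 2 of the 12 were higher and 1 lower (median 0.18), against 12.8% and 8.47% of all genes, with Hey1 at 1.34 (adjusted p = 0.00339). Of 14 other keratins only 3 could be tested, and Krt10 was lower at -0.98 (SE 0.14, adjusted p = 0.000555). With the arrays scaled to 1 median, where 45.3% of all genes were called higher and 1.52% lower, biliary genes had 16 higher and 0 lower, progenitor genes 17 and 1, Notch genes 7 and 0 and other keratins 0 and 0, and their medians lay at 0.81, 1.04, 0.065 and -0.61 relative to all genes.

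**Figure D4:**
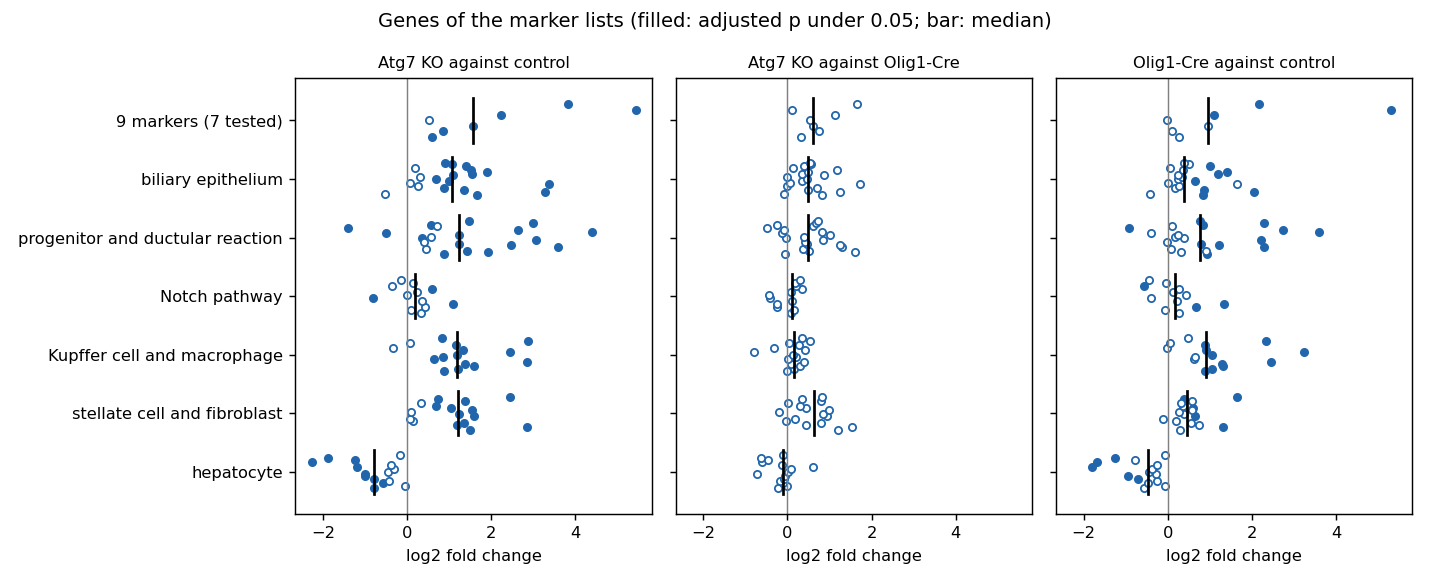
Log2 fold change (horizontal axis, one scale) of the tested genes of the markers and 6 lists in the 3 comparisons; each point is a gene, filled at an adjusted p under 0.05, and the bar is the list's median. Against control, the medians in Atg7 KO livers are 1.06 for biliary and 1.24 for progenitor genes, and -0.79 for hepatocyte genes.

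Markers of other liver cells moved in the same livers. Their counts in Atg7 KO against control livers stand beside 19.5% of all genes called higher and 15.3% lower. In Atg7 KO against control livers 13 of 15 tested Kupffer cell and macrophage genes were higher and 0 lower (median 1.19), with mean log2 signals per liver of 8.19 to 8.44 in Atg7 KO livers, against 6.88 to 7.34 in controls. Of 16 stellate cell and fibroblast genes 12 were higher and 0 lower (median 1.21). Among those 12, Col1a2 and Tagln were each detected on 4 of 4 Atg7 KO, 3 of 4 Olig1-Cre and 0 of 4 control arrays. Both were thus tested only through their Atg7 KO arrays. The means over the 16 genes were 6.36 to 7.13 in Atg7 KO livers, against 5.55 to 5.76 in controls. In Olig1-Cre livers the means were 7.86 to 8.63 for macrophage and 6.01 to 6.46 for stellate genes, and against control livers 10 of the 15 and 5 of the 16 were higher and 0 lower (12.8% and 8.47% of all genes). Of 15 hepatocyte genes 9 were lower and 0 higher (median -0.79, and -0.86 relative to all genes with the arrays scaled to 1 median, where 3 were called lower), and in Olig1-Cre against control livers 5 of the 15 were lower and 0 higher. The part of these cells in the values of Cd44 and the other members was not tested. Of the remaining lists in Atg7 KO against control livers, read beside 19.5% of all genes higher and 15.3% lower, mesothelium had 1 gene higher, Krt8, and 1 lower of 3 tested, and pancreas had 2 lower of 2. Neutrophil genes had 1 higher of 6, lymphocyte genes 2 higher of 8, endothelial genes 1 higher and 3 lower of 11, and erythroid genes 1 lower of 4. In Olig1-Cre against control livers 3 of the 6 neutrophil and 4 of the 8 lymphocyte genes were higher and 0 lower, while endothelial genes had 1 higher and 2 lower, erythroid genes 2 lower, pancreas genes 1 lower and mesothelium genes 1 higher and 1 lower. With the arrays scaled to 1 median, the genes called lower in Atg7 KO livers became 0 for mesothelium, pancreas, endothelial cells and the intestine and stomach list, and 4 endothelial genes were called higher, beside 45.3% of all genes.

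For each marker, the 3 genes with the most similar profile over the 12 livers were found by the root mean square difference of log2 values centred on their mean. For Sox9 they were Phlda3, B4galt6 and Micall2, at differences of 0.33, 0.33 and 0.34, where Sox9 itself deviated from its mean by 0.96. For Tspan8 they were Plat, Sftpd and Prc1 (0.31, 0.33 and 0.36, against a deviation of 1.66). Plat, the gene for tissue plasminogen activator, was at 4.03 between Atg7 KO and control livers and Sftpd, the gene for surfactant protein D, at 3.57. Those nearest to Tff3 were the interferon-induced genes Oasl1 and Rsad2 and the glutathione transferase gene Gsta2, at 0.66, 0.93 and 0.82, against a deviation of 2.64. Krt23 lay nearest to Ppl, Plk2 and Endod1 (0.32 to 0.33), Krt19 to Ncam1, Ugt8a and App (0.15 to 0.16), Krt7 to Sccpdh, Cbx6 and Cavin1 (0.21 to 0.23) and Cd44 to Pcdh7, Stap1 and Elmo1 (0.097 to 0.13).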

How the data were processed

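Gene expression was measured in 12 whole livers, 4 per group, with the group, sex, line and chip of each array taken from the labels. No source used here says which livers share a litter, so the p-values reflect only how much these livers varied. The intensity values that the authors deposited are average bead signals without background subtraction or normalization, each beside a detection p-value against the negative control beads. The authors also deposited log2 values. GenomeStudio and limma 3.22.1 appear in the submitters' processing notes, whereas the methods name a cubic spline.

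Here limma 3.58.1 in R 4.3.3 was used. The function neqc subtracted the background, added an offset of 16 and quantile-normalized the arrays, and the result differed from the deposited log2 table by at most 0.0270. A probe was kept when its detection p-value was under 0.05 on 4 or more arrays, and a gene took the median of its kept probes (10711 genes). Pairs of groups were fitted with lmFit and eBayes on their 8 arrays, two-sided, with Benjamini-Hochberg adjustment over all genes. Single genes were also given an exact permutation test over 70 relabellings. The fits were tested on simulated data. Members and lists were chosen with earlier results of these data known. The genes named are the members and the 3 genes most like each of them. From each list come up to 4 called genes with the largest changes in Atg7 KO against control livers. Vil1, Cftr, Grhl2, St14, Itgb6, Col1a2, Tagln, Ttr, Apoa1 and the genes named as dim or not detected were chosen after their values were seen. Alternatives changed the normalization, offset, filter, probe choice, covariates and livers, and the fit of single probes was chosen after seeing the data. One promoter motif that was searched is not reported here. The number of arrays limits the precision.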

Additional observations from a re-analysis of the deposited data

Results flagged for a closer look

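In 3 of 21 sets of 4 livers, 1 marker in 1 group, a single liver lay far from the other 3. For normally distributed values chance alone gives about 1 in 20. Krt7 in Olig1-Cre livers was high in replicate 1, and its gap to the next liver was 0.953 of the group's range (log2 5.33, against 4.49 to 4.53 in the others). Krt7 in controls was high in replicate 3, with a gap of 0.883 of the range (5.26, against 4.48 to 4.57). Tff3 in controls was high in replicate 1, the male, with a gap of 0.920 of the range (6.07, against 4.196 to 4.35). In each of these sets the high liver was the only 1 of 4 in which the gene was detected. The other 3 lay near the background, where values are compressed, so the rate of 1 in 20 may not hold for them.

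Setting each Cre line against the 2 controls of its own line, so that no control is shared, the difference between the lines passed for 0 of 10711 genes in limma (759 at an unadjusted p under 0.05, or 7.09%). The members farthest apart were Krt23, at 2.07 in Atg7 KO and 0.46 in Olig1-Cre livers (difference 1.60, SE 0.57, adjusted p = 0.672), and Tspan8, at 3.83 in Atg7 KO and 2.17 in Olig1-Cre livers (difference 1.67, SE 0.66, adjusted p = 0.684).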

How the results depend on the processing

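Against control, Sox9, Tspan8, Krt23 and Tff3 stayed called in Atg7 KO livers in all 16 alternatives, with log2 fold changes of 1.44 to 2.79, 2.06 to 4.15, 1.16 to 2.74 and 3.57 to 5.95. Cd44 lost its call in 3 and Krt19 in 4 of 15, and Krt7 gained one in 2. For Krt19 these include males alone, which sets Atg7 KO livers against 1 male control. The number of markers called higher stayed within 6 and 7 without any 1 liver. Scaling the arrays to 1 median shifted the median of all genes by 0.59 between Atg7 KO and control, by 0.18 between the Cre lines and by 0.40 between Olig1-Cre and control, and called 4854 genes higher and 163 lower in Atg7 KO against control, in place of 2088 and 1644. Relative to that shift the markers lay at 0.17 (Cd44) to 5.28 (Tff3). Sox9 and Krt23 in Olig1-Cre livers lay at 1.04 and 1.11, and Cd44, Krt7 and Krt19 at -0.10, -0.30 and -0.32. An offset of 50 lowered the log2 fold changes of Tff3, Tspan8 and Sox9 in Atg7 KO livers to 4.22, 2.69 and 1.70. The cause was not tested where a call changed. The labels give no replicate numbers, so livers were numbered here in array order within each group, and no paired analysis was made.

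Between Atg7 KO and control, genes called higher and lower were 1310 and 855 with sex as a covariate, 1132 and 740 within chip 1, 928 and 669 within chip 2. There were 1049 lower with males alone and 1082 with controls of the same line. Without any 1 liver there were 1725 to 2023 higher and 1264 to 1655 lower.

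Between Atg7 KO and Olig1-Cre, 8 and 9 genes were called. They were 2 and 4 with a cubic spline, without background correction and with an offset of 50, 29 higher with arrays scaled to 1 median, 2 and 2 without a filter, 15 and 18 with detection p under 0.01, 14 and 18 with detection on all arrays of a group, 14 and 19 with the brightest probe, 114 and 87 with sex as a covariate, 4 and 4 with chip as a block, 27 and 25 with all 12 arrays, 0 and 0 within chip 1, 1 and 2 within chip 2, 225 and 165 with males alone, and 5 and 5 with single probes. Markers called higher were 1 with detection p under 0.01, detection on all arrays of a group, the brightest probe and all 12 arrays. With sex as a covariate they were 2. Without any 1 liver there were 1 to 13 higher and 2 to 16 lower. Tff3 changed sign within chip 1 (-0.23) and spanned -0.24 to 0.40 without 1 liver (-0.053 and -0.23 without Atg7 KO replicate 2 and 4, -0.24 without Olig1-Cre replicate 4).

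Between Olig1-Cre and control, 1366 and 907 genes were called. They were 38 lower with arrays scaled to 1 median, 858 and 486 without a filter, 16 and 0 within chip 1, 767 and 465 within chip 2, 99 and 19 with males alone (1 liver against 1), and 493 and 239 with controls of the same line. Without any 1 liver there were 763 to 1801 higher and 325 to 1343 lower. Markers called higher were 0 within chip 1, and 3 to 4 without any 1 liver. Krt7 changed sign with arrays scaled to 1 median (0.092), within chip 1 (0.40), with males alone (0.047) and with controls of the same line (0.15), and spanned -0.22 to 0.17 without 1 liver (0.052, 0.065 and 0.064 without Olig1-Cre replicate 2, 3 and 4, 0.17 without control replicate 3). Krt19 changed sign with males alone (-0.0080).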

Other observations

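Guca2a, the gene for the intestinal peptide guanylin, was higher in both Cre lines than in controls. It averaged a log2 signal of 6.62 in Atg7 KO livers and 7.85 in Olig1-Cre livers (log2 fold change -1.23, SE 0.61, adjusted p = 0.393 from limma), and was detected on 0 of 4 control arrays. Against controls its level was higher by at least 3.61-fold with Alb-CRE (adjusted p = 0.000457) and by at least 8.44-fold with Olig1-CRE (adjusted p = 0.00232). Lgals4, the gene for the gut lectin galectin 4, was at -1.54 in Atg7 KO against control livers (SE 0.30, adjusted p = 0.00268) and -1.06 in Olig1-Cre against control livers (SE 0.36, adjusted p = 0.0614). With the arrays scaled to 1 median it was no longer called lower in Atg7 KO livers.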
